A study of Mus musculus with 19 samples.

Results

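The HoxA genes are the members of the homeobox cluster on mouse chromosome 6, and they were followed here through the differentiation of P19CL6 cells, a mouse embryonal carcinoma line that can form beating heart muscle in culture. The members were all genes whose symbol in the authors' deposited tables is Hoxa with a number. They came to 8 of the 4213 genes listed on at least 1 later day. Hoxa6 and Hoxa13 were listed on no day and have no value here. The groups were P19CL6 cells at days 4, 7, 10 and 14 of differentiation, with 4 libraries each, and the same line at day 1, with 3 libraries. The labels give no genetic change, and the agent that starts differentiation is not given in the sources used here. Spontaneous beating was seen by day 14, per the series' design text. All libraries come from 1 cell line, and nothing in the labels says whether replicates were separate cultures.

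Hox proteins are transcription factors that tell cells where they lie along the head to tail axis. Genes at one end of a cluster, with low paralog numbers, pattern the hindbrain, neck and branchial arches, and genes at the other end pattern the trunk, limbs and urogenital tract. In embryos the low-numbered genes are switched on first and the high-numbered genes later, an order called temporal collinearity. Paralogs are the genes with the same number in the A, B, C and D clusters.

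Each library was made by tag profiling, in which every transcript gives 1 short tag next to a restriction site near its 3' end. A level in TPM is then tags per 1000000 tags of the library and needs no division by transcript length, so levels of different genes can be set side by side. A transcript without the cutting site gives no tag. The tables hold the mean of each day and no single library, so no value has a standard deviation and no difference between days has a replicate check. Intervals in brackets are exact 95% intervals from the summed tags of a day and cover counting error only. In units of 1000000 tags, the libraries of a day summed to 17.4 at day 1 and to between 22.9 and 23.8 at the later days. A table lists only genes that passed the authors' false discovery rate filter for that day against day 1, all with a change of at least 2-fold (a log2 ratio of at least 1 in size), and a gene missing from a day's table is one without a reported level, which is not the same as a level of 0. In bulk RNA, fewer cells with a transcript and less of it per cell cannot be told apart.

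The start regions of 4 members are shown because these genes stand for the different time courses described below. Hoxa2 was the member still highest at day 14, and Hoxa5 had the largest day 7 over day 4 ratio of the 4 members with a value at day 4. Hoxa7 had the deepest decline after day 7 of the 7 members with later values, which Hoxa9 lacks. Hoxa10 was the most abundant member of groups 9 to 13. Each is 300 bases of GRCm38.p6 from RefSeq, on the minus strand, with 250 bases before and 50 after the annotated start. Hoxa2 is chr6:52164782-52165081, Hoxa5 is chr6:52204538-52204837, Hoxa7 is chr6:52218524-52218823 and Hoxa10 is chr6:52234890-52235189. Capitals mark matches on either strand to TTTATG, a Cdx-type motif, AGGTCA, the half-site motif of retinoic acid receptors, and ATAAA.
Hoxa2: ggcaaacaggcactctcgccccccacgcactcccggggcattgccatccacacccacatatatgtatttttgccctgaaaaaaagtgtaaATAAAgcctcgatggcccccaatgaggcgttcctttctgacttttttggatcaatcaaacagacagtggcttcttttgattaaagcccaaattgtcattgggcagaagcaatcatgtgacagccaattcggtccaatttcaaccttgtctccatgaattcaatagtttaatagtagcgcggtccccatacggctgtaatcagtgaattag
Hoxa5: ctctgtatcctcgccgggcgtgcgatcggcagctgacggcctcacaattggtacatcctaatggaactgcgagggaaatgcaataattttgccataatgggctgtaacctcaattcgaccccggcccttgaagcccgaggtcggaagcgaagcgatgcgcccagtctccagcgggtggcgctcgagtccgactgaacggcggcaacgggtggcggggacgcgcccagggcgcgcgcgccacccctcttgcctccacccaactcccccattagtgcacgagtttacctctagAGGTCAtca
Hoxa7: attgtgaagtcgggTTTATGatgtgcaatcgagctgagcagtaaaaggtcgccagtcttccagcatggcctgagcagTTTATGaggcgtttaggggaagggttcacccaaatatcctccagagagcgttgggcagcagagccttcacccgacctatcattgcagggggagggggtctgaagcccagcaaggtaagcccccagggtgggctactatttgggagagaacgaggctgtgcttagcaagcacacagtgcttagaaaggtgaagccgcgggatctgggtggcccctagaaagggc
Hoxa10: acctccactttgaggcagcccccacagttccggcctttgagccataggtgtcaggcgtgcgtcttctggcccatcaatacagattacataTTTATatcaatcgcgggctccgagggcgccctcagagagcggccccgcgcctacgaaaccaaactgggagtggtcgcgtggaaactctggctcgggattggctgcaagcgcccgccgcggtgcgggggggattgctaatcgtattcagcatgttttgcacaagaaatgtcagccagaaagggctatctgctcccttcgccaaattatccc
The letters ATAAA lie inside the reverse complement of TTTATG, so every TTTATG match is also an ATAAA match. TTTATG occurred at 2 places in the Hoxa7 window, starting 236 and 173 bases before the start, and in none of the other 7 windows found for listed members. It occurred in 11.85% of the 32851 promoter windows in the RefSeq table. AGGTCA occurred once, in Hoxa5, from base 42 of the transcript, against 16.3% of all windows. ATAAA occurred in 4 of the 8 windows, against 40.0% of all windows. CACGTG, the E-box motif, occurred in 0 of the 8, against 7.15% of all. CCGCCC, a GC-box motif, occurred in 2 of the 8, against 35.7% of all. The 8 windows cover 7 members, with 2 starts for Hoxa10, and their GC share ran between 45.7% and 64.0%. The counted transcripts of Hoxa2, Hoxa5 and Hoxa10 begin at the starts shown, but the counted Hoxa7 transcript begins 1068 bases downstream of the start shown, in GENCODE. A match is a run of letters and not a measured binding site.

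All 8 listed members rose, and none was listed as fallen on any day. At days 4, 7, 10 and 14, the authors' deposited tables listed 4, 8, 7 and 7 of the 8 members as risen, while 21.3%, 25.9%, 40.2% and 49.8% of the 4213 genes were listed as risen and 20.9%, 14.9%, 14.2% and 17.2% as fallen. Among only the genes that a day's table lists, where every listed HoxA gene was a rise, rises made up 50.5%, 63.5%, 73.9% and 74.4% on the 4 days. At day 1 a total of 7 members had 0 tags and Hoxa2 had 2, and a gene at 0 tags cannot be listed as fallen. Among the 330 genes with 0 tags at day 1 the share listed as risen was 17.3%, 32.4%, 57.3% and 81.8% at days 4, 7, 10 and 14, while 3, 7, 6 and 6 of the 7 such members were listed. By day 14 the share of members is therefore near that of all genes that started at 0.

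The rises over day 1 were large in size. Against the floor of 3 tags at day 1, which is 0.172 TPM, the median member with 0 tags at day 1 was at least 49.8, 90.5, 104 and 87.6 times higher at days 4, 7, 10 and 14. The same median over all listed genes with 0 tags at day 1 was 27.7, 24.6, 30.2 and 28.4. In levels, those members had a median of 8.57, 15.6, 17.9 and 15.1 TPM on the 4 days, and all such genes 4.78, 4.24, 5.20 and 4.89 TPM.

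**Figure D1:**
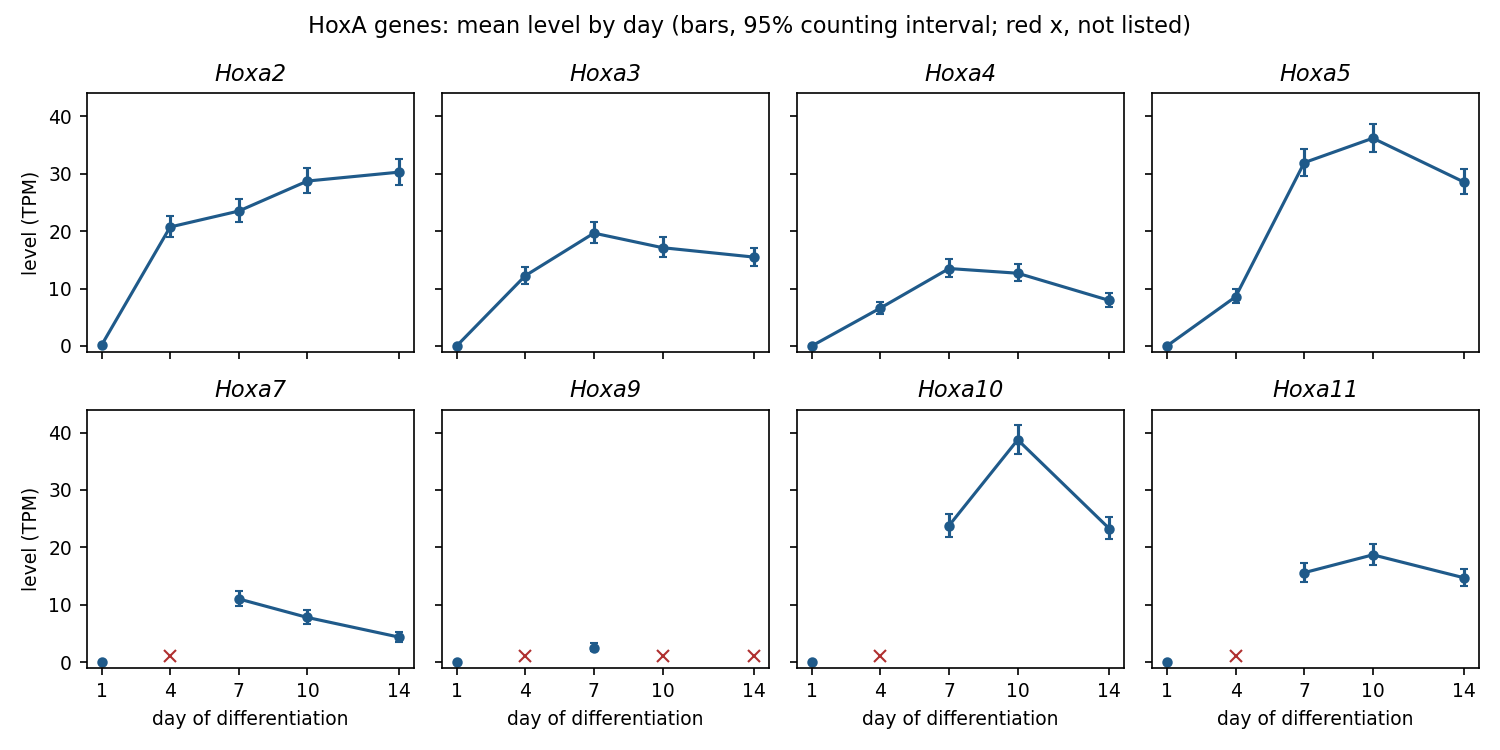
Mean level of each HoxA gene in TPM (vertical axis) at days 1, 4, 7, 10 and 14 (horizontal axis), with 95% counting intervals as bars. A red x marks a day on which the gene was not listed and has no value. Hoxa2 to Hoxa5 have values from day 4, the higher-numbered genes from day 7.

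The low-numbered genes, groups 1 to 4, were represented by Hoxa2, Hoxa3 and Hoxa4. Hoxa2, which specifies the second branchial arch and hindbrain segments, had 0.12 TPM at day 1 and 20.7, 23.5, 28.7 and 30.3 TPM at days 4, 7, 10 and 14. Its level at day 14 was 264 times that at day 1 (72.8 to 2183), a wide interval because day 1 rests on 2 tags. Most of the climb was in place by day 4, when Hoxa2 stood at 68.4% of its highest level, and days 7 and 10 each lay a little above the day before, while days 10 and 14 could not be told apart by counting error.

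Hoxa3, needed for the thymus and parathyroid, had 0 TPM at day 1 and 12.2, 19.7, 17.1 and 15.5 TPM at days 4, 7, 10 and 14. Day 7 was its highest, at least 114 times day 1, and day 4 held 62.3% of it. Hoxa4, which patterns the neck vertebrae, had 0 TPM at day 1 and 6.61, 13.5, 12.7 and 7.93 TPM at days 4, 7, 10 and 14. Its day 4 level was 49.0% of its day 7 level, and its day 14 level had come back to 58.8% of it.

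The middle groups, 5 to 7, were represented by Hoxa5 and Hoxa7. Hoxa5, which patterns the neck and upper trunk and is needed for lung development, had 0 TPM at day 1 and 8.57, 31.95, 36.2 and 28.5 TPM at days 4, 7, 10 and 14. Day 4 held 23.7% of its highest level, the lowest such share among the 4 members listed at day 4. Hoxa7, which patterns the trunk, had 0 TPM at day 1, was not listed at day 4, and had 11.0, 7.78 and 4.36 TPM at days 7, 10 and 14. Its highest day was the first on which it was listed, and its day 14 level was 39.6% of that.

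The high-numbered groups, 9 to 13, were represented by Hoxa9, Hoxa10 and Hoxa11, and none of them was listed at day 4. Hoxa9, known for its role in blood progenitors, had 0 TPM at day 1 and was listed at day 7 alone, with 2.53 TPM from 59 tags, at least 14.7 times day 1. That is close to the weakest signal the day 7 table holds for a gene that started at 0, which was 2.23 TPM. Hoxa10, which patterns the lumbar spine and the uterus, had 0 TPM at day 1 and 23.8, 38.75 and 23.3 TPM at days 7, 10 and 14. Its day 10 level, at least 225 times day 1, was the highest of any HoxA gene on any day.

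Hoxa11, which patterns the forearm and the urogenital tract, had 0 TPM at day 1 and 15.6, 18.7 and 14.7 TPM at days 7, 10 and 14. Hoxa10 and Hoxa11 thus both had their highest value at day 10. Hoxa10 was the higher of the pair each day, by 1.53 times (1.34 to 1.75) at day 7, 2.07 times (1.85 to 2.33) at day 10 and 1.59 times (1.39 to 1.82) at day 14.

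The share of its own highest level that a gene had at day 4 was lower at every step in paralog number, 68.4%, 62.3%, 49.0% and 23.7% for Hoxa2, Hoxa3, Hoxa4 and Hoxa5, and Hoxa7 and above were not listed. For genes at 0 tags at day 1 the weakest entry at day 4 was 2.26 TPM. This ordering is a description of 1 mean per day, with no test. The highest day over day 4 gave 1.46 (1.30 to 1.64) for Hoxa2 and 1.61 (1.38 to 1.87) for Hoxa3. For Hoxa4 and Hoxa5 it gave 2.04 (1.68 to 2.49) and 4.22 (3.62 to 4.95). The intervals of Hoxa2 and Hoxa3 overlap, and so do those of Hoxa3 and Hoxa4, while that of Hoxa5 lies apart. The day of the highest level did not follow paralog number in the same way, since it was day 14 for Hoxa2, day 7 for Hoxa3, Hoxa4, Hoxa7 and Hoxa9, and day 10 for Hoxa5, Hoxa10 and Hoxa11.

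**Figure D2:**
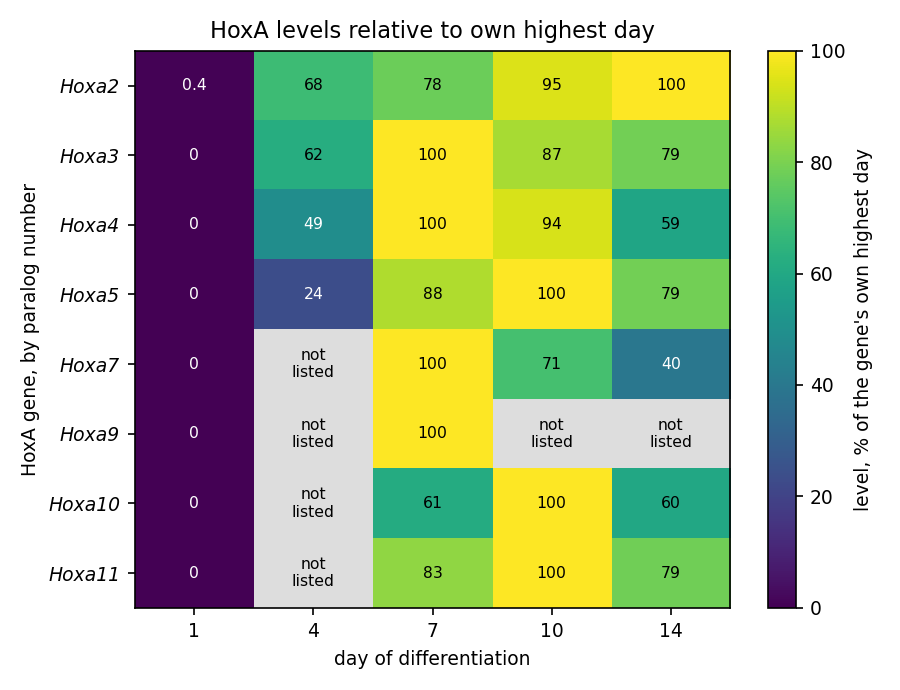
Level of each HoxA gene (rows, by paralog number) at each day (columns) as a percentage of that gene's own highest day; grey cells are days on which the gene was not listed. Down the day 4 column the values run 68, 62, 49 and 24 before the unlisted genes begin.

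Between days 4 and 7 all 4 members with a value at both days were higher at day 7 by more than counting error, where the share over all 825 genes listed at both days was 36.2% higher and 35.4% lower. The size of the step grew with paralog number, though the intervals of Hoxa3 and Hoxa4 overlap. These ratios use the same day 4 levels as the shares above and are not a separate ordering. The day 7 level over the day 4 level was 1.13 (1.00 to 1.28) for Hoxa2, 1.61 (1.38 to 1.87) for Hoxa3, 2.04 (1.68 to 2.49) for Hoxa4 and 3.73 (3.19 to 4.38) for Hoxa5. The median of the 4 was 1.82, against 1.01 over all genes. The interval of Hoxa2 ends just above 1.

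Between days 7 and 10 the 7 members with values divided. By counting error 4 were higher, 2 were lower and the interval of Hoxa4 held 1, while 46% of 1282 genes were higher and 23.6% lower. Hoxa10 made the largest step, with a day 10 level 1.63 times (1.46 to 1.81) its day 7 level. Hoxa2, Hoxa5 and Hoxa11 followed with ratios of 1.22 (1.09 to 1.37), 1.13 (1.03 to 1.25) and 1.20 (1.04 to 1.38). Hoxa7 was lower, with a ratio of 0.707 (0.580 to 0.859), and Hoxa3 lower by little, with 0.871 (0.759 to 0.999).

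Between days 10 and 14 no member was higher by counting error, 5 were lower, and the intervals of Hoxa2 and Hoxa3 held 1. Over 1810 genes 37.7% were higher and 24.8% lower on the same step. The day 14 level over the day 10 level was 0.561 (0.436 to 0.719) for Hoxa7, 0.601 (0.539 to 0.669) for Hoxa10 and 0.626 (0.518 to 0.754) for Hoxa4. It was 0.785 (0.680 to 0.907) for Hoxa11 and 0.788 (0.711 to 0.873) for Hoxa5. Hoxa2 had 1.05 (0.947 to 1.17) and Hoxa3 had 0.904 (0.782 to 1.05). The median member ratio was 0.785, against 1.05 over all genes. The 5 lower members were Hoxa4 of the 3 listed genes in groups 1 to 4 and all 4 with values in groups 5 to 13. Groups 1 to 4 summed to 53.7 TPM (50.8 to 56.7) at day 14, against 58.5 TPM (55.4 to 61.8) at day 10, with overlapping intervals. Groups 9 to 13 summed to 38.0 TPM (35.5 to 40.5) at day 14, against 57.5 TPM (54.4 to 60.6) at day 10, apart by their intervals. All 7 genes were still listed as risen over day 1.

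**Figure D3:**
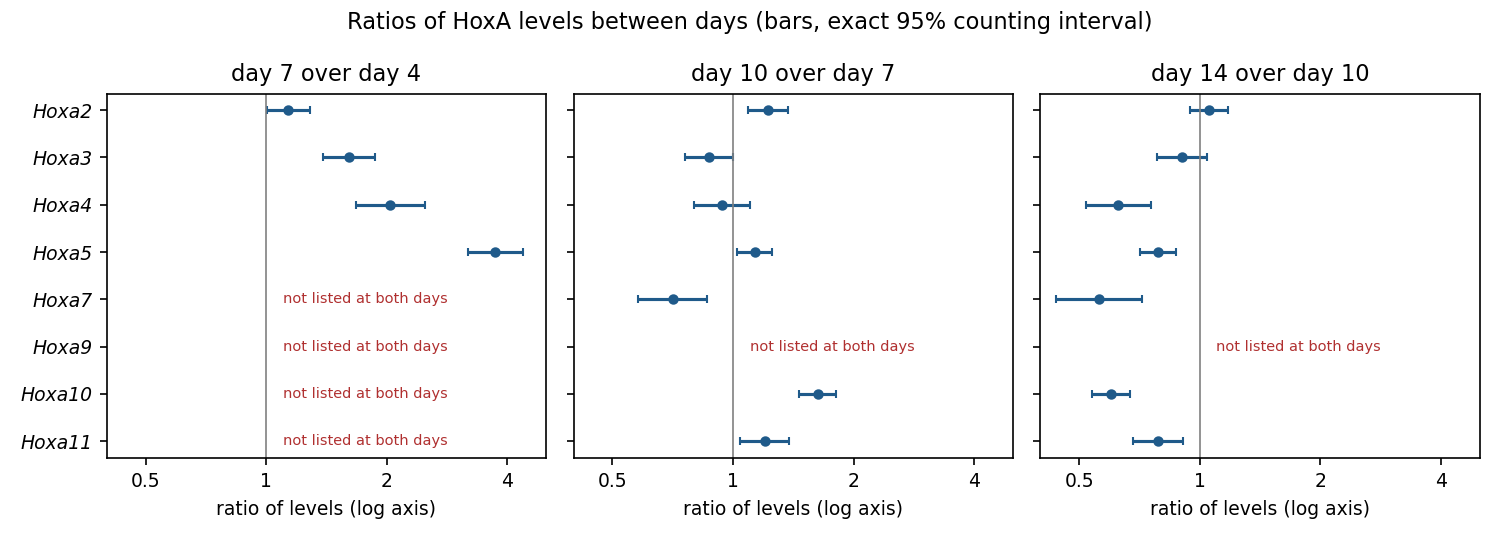
Ratio of the later to the earlier day's level (horizontal, log axis) for each HoxA gene (rows) in 3 panels, with exact 95% counting intervals. In the day 7 over day 4 panel the ratio grows from Hoxa2 to Hoxa5, and in the day 14 over day 10 panel no gene lies above 1 by its interval.

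The order of levels among the members changed from day to day. At day 4 it ran Hoxa2, Hoxa3, Hoxa5 and Hoxa4, each apart from the next by its counting interval. At day 7 Hoxa5 led, Hoxa10 and Hoxa2 followed and could not be told apart (ratio 1.01, 0.899 to 1.14), and Hoxa3 came next. Hoxa11 and Hoxa4 then could not be told apart either (ratio 1.16, 0.991 to 1.35), and Hoxa7 and Hoxa9 closed the row. At day 10 Hoxa10 and Hoxa5 led without a difference beyond counting error (ratio 1.07, 0.972 to 1.18), ahead of Hoxa2, then Hoxa11 and Hoxa3 together, Hoxa4 and Hoxa7. At day 14 Hoxa2 and Hoxa5 led together (ratio 1.06, 0.955 to 1.18), ahead of Hoxa10, then Hoxa3 and Hoxa11 together, Hoxa4 and Hoxa7. Hoxa7 was thus the lowest of the 7 members listed at days 10 and 14, when Hoxa9 had no value.

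Summed over the listed members, the HoxA level was 0.12 TPM at day 1, 48.15 TPM at day 4 from 4 genes, 142 TPM at day 7 from 8, 160 TPM at day 10 from 7 and 124.5 TPM at day 14 from 7. Part of the step after day 4 comes from genes that entered the tables. The 4 members listed at all later days summed to 48.15, 88.6, 94.7 and 82.2 TPM at days 4, 7, 10 and 14. Of the HoxA tags, groups 1 to 4 held 82.2% (79.8 to 84.4), 40.0% (38.4 to 41.7), 36.6% (35.0 to 38.2) and 43.1% (41.3 to 44.9) on days 4, 7, 10 and 14. Groups 9 to 13 held 29.6% (28.1 to 31.2), 35.9% (34.4 to 37.5) and 30.5% (28.8 to 32.2) on days 7, 10 and 14. The low and high ends were therefore near each other in tag share at day 10 and further apart at day 14.

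**Figure D4:**
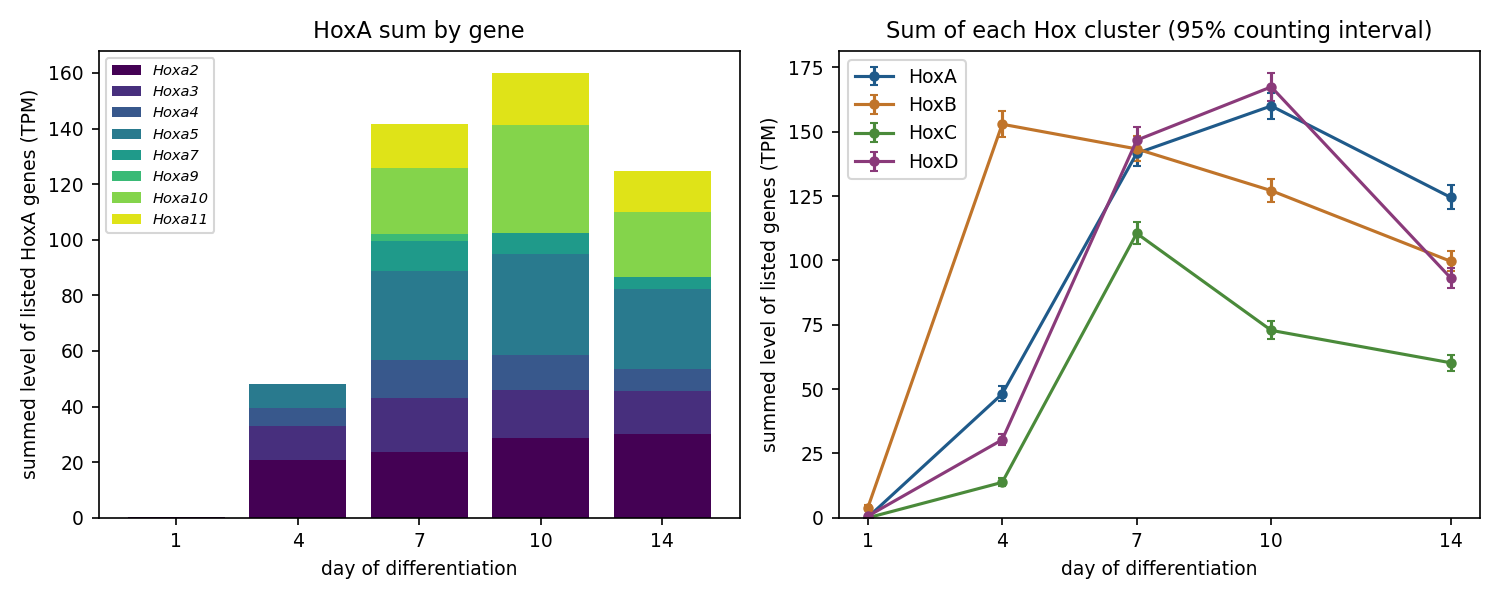
Left, the summed level in TPM of the listed HoxA genes at each day, stacked by gene; right, the summed level of listed genes in each Hox cluster by day, with 95% counting intervals. HoxA reaches 160 TPM at day 10 and HoxB has its highest sum at day 4.

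Of all tags from listed Hox genes, HoxA held 19.6%, 26.1%, 30.3% and 33.0% at days 4, 7, 10 and 14. HoxB held 62.4%, 26.4%, 24.1% and 26.4%, HoxC 5.62%, 20.4%, 13.8% and 16.0%, and HoxD 12.4%, 27.1%, 31.7% and 24.7%. The climb in the HoxA share depends on which genes are listed. Over the 17 Hox genes listed at all later days, 4 of them HoxA, it was 20.4%, 18.8%, 21.6% and 25.5%. At day 4 HoxB held the largest share of the 4 clusters and HoxA the next. Of the 28 genes named for the other clusters, 15, 16, 17 and 15 were listed as risen and 0 as fallen on the 4 days, with median ratios to day 1 of 29.7, 83.2, 70.3 and 67.5. Of the 18 listed on some day, that is 83.3%, 88.9%, 94.4% and 83.3% risen, against 21.3%, 25.9%, 40.2% and 49.8% of the 4213 genes.

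Set beside their paralogs, the HoxA genes differed at some steps and not at others. Hoxa2 had 23.5 TPM at day 7, against 20.7 TPM at day 4, while Hoxb2 had 14.2 TPM at day 7, against 18.2 TPM at day 4, a ratio of 0.781 (0.674 to 0.903) and so outside the Hoxa2 interval. Hoxa3 and Hoxb3 had day 7 over day 4 ratios with overlapping intervals, 1.61 (1.38 to 1.87) and 1.70 (1.49 to 1.95), while Hoxd3 had 2.32 (2.00 to 2.69), above the Hoxa3 interval. At day 14 over day 10 Hoxd3 had a ratio of 0.396 (0.350 to 0.447), against 0.904 (0.782 to 1.05) for Hoxa3 and 0.850 (0.744 to 0.970) for Hoxb3. Between days 4 and 7 Hoxa4 had a ratio of 2.04 (1.68 to 2.49) and Hoxb4 had one of 0.981 (0.833 to 1.16), while Hoxd4, with 1.64 (1.42 to 1.90), overlapped Hoxa4.

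Among group 7, Hoxb7 was listed at day 4 with 4.78 TPM and Hoxa7 was not. Hoxb7 then had 8.61, 9.30 and 7.59 TPM at days 7, 10 and 14. On the day 10 over day 7 step Hoxa7 had a ratio of 0.707 (0.580 to 0.859) and Hoxb7 one of 1.08 (0.887 to 1.32). In group 10 the 3 paralogs took the same direction between days 10 and 14, with ratios of 0.601 (0.539 to 0.669) for Hoxa10, 0.644 (0.533 to 0.776) for Hoxc10 and 0.613 (0.574 to 0.655) for Hoxd10. Their levels were unlike, since Hoxd10 had 93.9, 102 and 62.7 TPM at days 7, 10 and 14, against 9.08, 12.45 and 8.01 TPM for Hoxc10. Hoxd10 was listed at day 4, with 2.60 TPM, and Hoxa10 was not. In group 9, Hoxb9 had 45.8 TPM at day 7, where Hoxa9 had 2.53 TPM. These paralogs are set side by side as values, and no test of the clusters against each other was made.

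A pair of non-coding RNAs inside the cluster were also listed. The RNA 2700086A05Rik, called Hoxaas3 by RefSeq, runs on the plus strand of GRCm38, opposite to the Hox genes, across Hoxa4, Hoxa5 and Hoxa6. It had 0 TPM at day 1 and 23.1, 19.0, 3.67 and 3.99 TPM at days 4, 7, 10 and 14. Its highest day was day 4, on which Hoxa5 was lowest among the later days. Day 4 was also the lowest later day of Hoxa2, Hoxa3 and Hoxa4, so this was not particular to Hoxa5. For Hoxa4 days 4 and 14 could not be told apart by counting error. The ratio of this RNA to Hoxa5 was 2.70 (2.29 to 3.19), 0.595 (0.528 to 0.670), 0.101 (0.0800 to 0.127) and 0.140 (0.112 to 0.173) on days 4, 7, 10 and 14. Its ratio to Hoxa7 was 1.73 (1.48 to 2.02), 0.472 (0.360 to 0.615) and 0.913 (0.684 to 1.22) on days 7, 10 and 14. Between days 7 and 10 the RNA had a ratio of 0.193 (0.151 to 0.244), below the interval of every HoxA gene with a value on that step.

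Hoxa11as, called Hoxa11os by RefSeq, is transcribed from the strand opposite Hoxa11. It had 0 TPM at day 1, was not listed at day 4, and had 6.12, 9.87 and 9.86 TPM at days 7, 10 and 14. Its ratio to Hoxa11 was 0.393 (0.322 to 0.478), 0.528 (0.447 to 0.622) and 0.671 (0.567 to 0.794) on those days. The antisense RNA held its level between days 10 and 14, with a ratio of 0.999 (0.828 to 1.20), while Hoxa11 was lower. Whether the counting used strand is not given in the sources used here, so the values of Hoxa11 and Hoxa11as, and of 2700086A05Rik and the Hox genes it spans, are uncertain where their tags could be assigned to either.

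**Figure D5:**
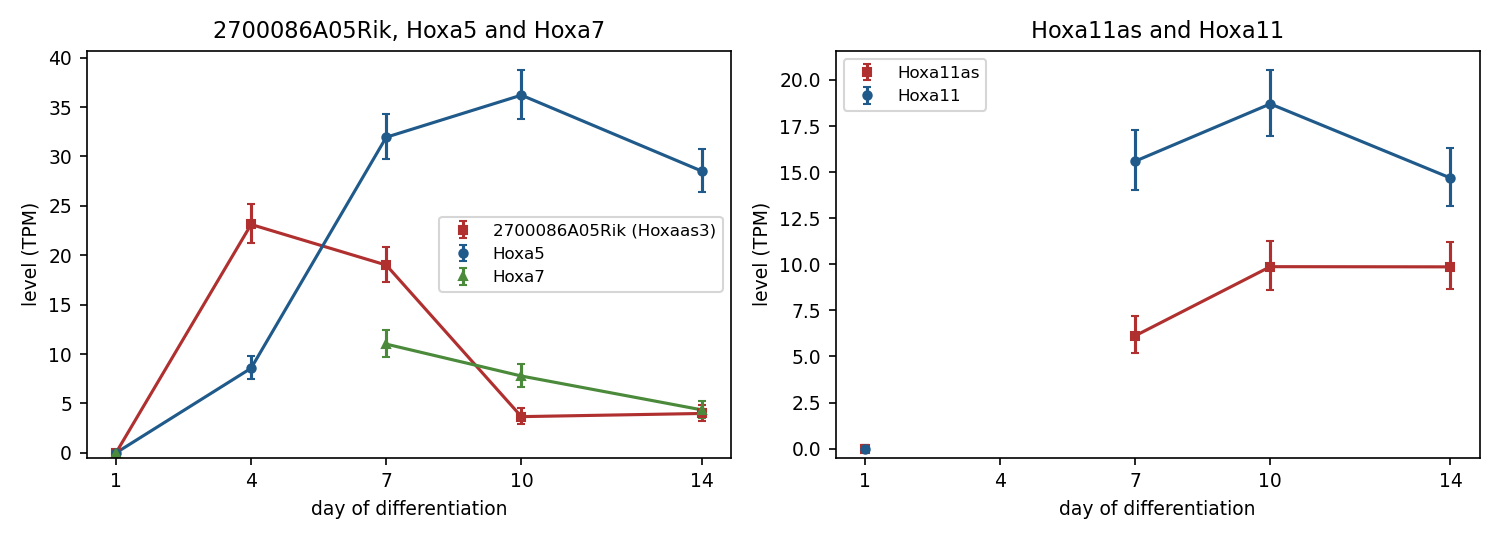
Level in TPM (vertical axis) by day (horizontal axis) for 2700086A05Rik with Hoxa5 and Hoxa7 on the left and for Hoxa11as with Hoxa11 on the right, with 95% counting intervals; lines join neighbouring days on which a gene was listed. 2700086A05Rik is highest at day 4 and lies below Hoxa5 from day 7 on.

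Of 17 neighbours and cluster RNAs, 1, 2, 3 and 2 were listed as risen and 0, 0, 1 and 1 as fallen at days 4, 7, 10 and 14. Only 4 of the 17 were listed on any day, too few to set their share against that of all genes. The rises were the 2 RNAs above and, at day 10, Skap2, an adaptor protein, with 11.2 TPM at day 10, against 4.59 TPM at day 1. Snx10, a sorting nexin, fell to 3.93 TPM at day 10 and 3.61 TPM at day 14, against 9.47 TPM at day 1.

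Genes that work with or upstream of Hox proteins were listed by role. The lists hold genes that no table lists, so the counts of the larger lists are followed by their share of the list's genes listed on some day, to be read against the 21.3%, 25.9%, 40.2% and 49.8% risen and the 20.9%, 14.9%, 14.2% and 17.2% fallen over the 4213 genes at days 4, 7, 10 and 14. Of 9 TALE homeobox genes, whose products bind DNA together with Hox proteins, 1, 1, 3 and 2 rose and none fell at days 4, 7, 10 and 14. Only 3 of the 9 were listed on any day, too few to set their share against that of all genes. Meis2 had 20.1 TPM at day 1 and 46.2, 60, 175 and 229 TPM at days 4, 7, 10 and 14, so that it was highest on the day when 5 of the HoxA genes were lower than at day 10. Pknox2 was listed at day 10 alone, with 32.9 TPM, against 15.6 TPM at day 1.

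Of 14 Cdx and caudal genes, which act at the tail end of the embryo, 7, 4, 3 and 4 rose and 1, 3, 6 and 7 fell on the 4 days. Of the 11 listed on some day, that is 63.6%, 36.4%, 27.3% and 36.4% risen and 9.09%, 27.3%, 54.5% and 63.6% fallen. Cdx2, a regulator of middle and posterior Hox genes, had 4.94 TPM at day 1 and 235, 165, 38.4 and 16.3 TPM at days 4, 7, 10 and 14. Cdx2 was thus highest at day 4, at 47.7 times day 1 (38.6 to 59.7), before Hoxa7, Hoxa10 and Hoxa11 were first listed. T, the tail and streak gene, had 701 TPM at day 4, against 156 TPM at day 1, and fell to 18.7 TPM at day 10 and 30.4 TPM at day 14. The median ratio to day 1 of the listed members of this list was 12.3, 6.02, 0.309 and 0.353 at days 4, 7, 10 and 14, against 2.03, 2.39, 2.82 and 3.02 over all listed genes.

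Of 21 retinoic acid pathway genes, 4, 6, 6 and 8 rose and 0, 0, 1 and 1 fell, and retinoic acid is a known inducer of low-numbered Hox genes. Of the 11 listed on some day, 36.4%, 54.5%, 54.5% and 72.7% rose. Their listed members had median ratios to day 1 of 12.2, 15.6, 45.0 and 30.8. Crabp1, which binds retinoic acid in the cytoplasm, had 2.12 TPM at day 1 and 34.0, 48.1, 98.7 and 146 TPM at days 4, 7, 10 and 14. Cyp26a1, which breaks retinoic acid down, had 71.4 TPM at day 4 and 73.2 TPM at day 7, against 8.49 TPM at day 1, and was not listed afterwards. Rarg, a retinoic acid receptor, was listed at day 7 alone, with 90.5 TPM, against 41.1 TPM at day 1.

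Of 25 Polycomb genes, whose complexes keep Hox genes silent, 3, 3, 5 and 5 rose and 2, 3, 3 and 3 fell, with median ratios of 2.99, 1.38, 2.97 and 3.20. Of the 9 listed on some day, 33.3%, 33.3%, 55.6% and 55.6% rose and 22.2%, 33.3%, 33.3% and 33.3% fell. Phc1, a subunit of the first Polycomb complex, fell to 31.9 TPM at day 7, against 147 TPM at day 1, and Eed, a subunit of the second, fell to 43.7 TPM at day 7, against 102 TPM at day 1. Cbx2, a reader subunit of the first complex, rose to 51.9 TPM at day 7, against 22.3 TPM at day 1. A list of 13 genes held Trithorax and demethylase genes, which oppose Polycomb, and the insulator gene Ctcf. On the 4 days 0, 1, 1 and 1 of them rose and 1, 0, 2 and 1 fell. Only 3 of the 13 were listed on any day, too few to set their share against that of all genes. Mll5, the gene now named Kmt2e, had 25.8 TPM at day 1 and 56.3, 93.7 and 120 TPM at days 7, 10 and 14. The others fell. Ash1l was listed at day 10 alone, with 30.8 TPM, against 68.9 TPM at day 1. Dpy30 had 33.8 TPM at day 1 and 15.2, 16.1 and 12.1 TPM at days 4, 10 and 14. The part of these regulators in the HoxA levels was not tested.

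By the distance between time courses, each scaled to its highest value among the days compared, the genes most like the summed HoxA level among 515 candidates were Peg12, Pik3ip1 and Vegfc, at root mean square distances of 0.0502, 0.0582 and 0.0701 over 5 days. That summed course takes in genes as they entered the tables, so its day 4 value was 30.1% of its highest, against 50.8% for the 4 members listed at all later days. For the sum of those 4, an alternative chosen after seeing the data, the nearest genes were Hoxb6, Vegfc and Bmp2, at 0.0634, 0.0667 and 0.0718, so that of the first 3 genes Vegfc alone was among the nearest to both sums. Peg12, an imprinted gene, had 12.2, 46.5, 133, 154 and 108 TPM at days 1, 4, 7, 10 and 14. The genes most like Hoxa2 were Lamp2, Adcy6 and Mamdc4, at 0.0867, 0.0880 and 0.0950. The genes most like Hoxa10, over the 4 days on which it has a value, were Pth1r, Plxna2 and Elk3, at 0.0513, 0.0672 and 0.0727. Pth1r, the receptor for parathyroid hormone, had 5.05 TPM at day 1 and 40.3, 73.7 and 41.6 TPM at days 7, 10 and 14. Day 4, which that likeness does not see, was 81.3 TPM for Plxna2, its highest.

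Marker genes of several cell types changed in level over the same days. Of all 4213 genes, 21.3%, 25.9%, 40.2% and 49.8% were listed as risen at days 4, 7, 10 and 14. Listed as fallen were 20.9%, 14.9%, 14.2% and 17.2%. Each marker list holds 3 or 4 genes, too few to set its share against these. Pou5f1, a marker of undifferentiated cells, had 1489 TPM at day 1 and 678, 235, 117 and 144 TPM at days 4, 7, 10 and 14. Of 4 streak and mesoderm markers, 4, 3, 1 and 1 rose and 0, 0, 1 and 2 fell on the later days, led by Tbx6 with 669 TPM at day 4, against 2.47 TPM at day 1. Of 4 heart muscle markers, 0, 0, 1 and 3 rose, with Tnnt2 at 66.7 TPM at day 14, against 0 TPM at day 1. Among all genes with 0 tags at day 1, as Tnnt2 had, 17.3%, 32.4%, 57.3% and 81.8% were listed as risen on the 4 days. Of 4 endothelium and blood markers, 0, 2, 4 and 4 rose, and Cdh5 had 6.98, 24.0 and 8.98 TPM at days 7, 10 and 14, highest on the same day as Hoxa10.

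Of 4 limb and trunk mesenchyme markers, 0, 2, 2 and 2 rose, and Prrx1 had 5.65, 35.4 and 40.0 TPM at days 7, 10 and 14, so that it was first listed on the same day as Hoxa7, Hoxa10 and Hoxa11. Of 3 endoderm markers 0, 0, 2 and 3 rose, and of 4 neural markers 0, 0, 1 and 1 rose while 2, 2, 2 and 1 fell. Of 3 markers of undifferentiated cells, 0 rose and 2, 1, 1 and 1 fell, and Nanog was not listed. Markers and HoxA levels changed over the same days. Whether the cell makeup changed, and what part it had in the HoxA levels, was not tested.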

How the data were processed

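RNA of P19CL6 cells was profiled as 3' tags with a commercial tag profiling kit (protocol 2.1B), per the labels' protocols. The genome build was mm9, per the submitters' processing notes; no source used here names the aligner or counter. The authors deposited 4 tables, each setting a later day against day 1, with the mean tag count and mean TPM (tags per 1000000) of the libraries of a day, a log2 ratio of the day means, and p-value and FDR columns. The columns of the p-value and FDR hold values above 1 and were read as a score of the authors and not used. The TPM of 0 tags was deposited as 0.01 and read as 0.

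Summed tags were recovered as mean count times libraries, and all came out whole within 0.05. Ratios have exact binomial intervals and levels exact Poisson intervals, at 95%. Where day 1 had 0 tags the floor of 3 tags stood in for it. The interval code was checked on simulated counts. No replicate test was possible from day means, so no p-value is given. Higher or lower between later days means an interval without 1.

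The members and lists were chosen with earlier results of these data known. All HoxA members are named; of each other list at most 4 genes are named, those with the highest TPM on any day, and the 3 genes nearest in time course among those listed at all later days with at least 10 TPM. Gene names and start regions came from RefSeq and GENCODE tables of GRCm38, and no coordinate was converted. Motifs were searched on both strands. Python 3.11.15, numpy 2.4.6, scipy 1.17.1 and pandas 2.3.3 were used.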

Additional observations from a re-analysis of the deposited data

How the results depend on the processing

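No symbol had 2 entries, so the 13 values recomputed with another choice of entry could not differ and say nothing. Of the other 43, 24 stayed within 1.5 times for counts or within the counting interval for levels, and 19 moved. A change of direction was not looked for. Some of the 24 could not have moved either, as said below. The counts of risen HoxA genes were the same with members taken by description. They were also the same with a 4-fold minimum and with the lower interval end above 2. Neither of these limits could remove a member, since every listed member was at least 14.7 times day 1, so that sameness says nothing. The median fold over day 1 was 60.4, 102, 109 and 89.9 at days 4, 7, 10 and 14, and it rests on the floor. With a floor of 1 tag it was 165, 253, 298 and 264, and on log2(TPM + 1) it was 11.4, 18.6, 19.7 and 16.5. Without its most abundant member the summed level was 0, 27.4, 110, 121 and 94.3 TPM at days 1, 4, 7, 10 and 14. Over the 4 members listed at all later days, an alternative chosen after seeing the data, it was 88.6, 94.7 and 82.2 TPM at days 7, 10 and 14. Over Hox genes listed at all later days the HoxA share was 18.8%, 21.6% and 25.5% at days 7, 10 and 14. Scaling to the summed tags changed no summed level beyond counting error. The totals used for it were themselves derived from the deposited counts and TPM, so this was fixed in advance and says nothing.

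No paired analysis was possible because the files hold only the mean of each day, and leaving out each replicate was not run for the same reason. At this depth 1 tag is worth 0.0420 to 0.0574 TPM, and the weakest entry of a gene with 0 tags at day 1 was 2.01 to 2.26 TPM.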
